A study of Mus musculus with 8 samples.

Results

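The 31 genes described here make, control, move and store cholesterol in the tumor cells, out of 53697 genes in the count table. They are 18 enzymes of cholesterol synthesis, 4 genes of the SREBP2 control system, the sterol carrier gene Stard4, 5 genes of the LXR and efflux arm and 3 genes of storage and lysosomal release. The members were chosen from a theme, with their differences between Dll1+ and Dll1- cells and between reporters already known, so those differences are given as a description and not as a test of the theme. RNA was sequenced from mammary tumors of MMTV-PyMT mice on a C57BL/6 background, in which the mammary promoter MMTV drives the polyoma middle T oncogene. The mice also carried a reporter of the Notch ligand gene Dll1, either a GFP-IRES-Cre-ERT2 knock-in at Dll1 (PyMT-Dll1 GFP, 2 mice) or a BAC-based mCherry transgene (PyMT-Dll1 mCh, 2 mice). Tumor cells were depleted of CD45, CD31 and Ter119 positive cells and sorted by the reporter, so that each of the 4 mice gave 1 Dll1+ and 1 Dll1- library. The ages of the mice are not given in the sources used here.

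Cholesterol is built from acetyl-CoA through mevalonate, isoprenoid diphosphates, squalene and lanosterol. When membrane cholesterol is low, SCAP carries SREBP2 from the endoplasmic reticulum to the Golgi, where it is cleaved and freed to switch on the synthesis genes, while the INSIG proteins hold SCAP back when sterol is plentiful. The nuclear receptors LXR alpha and LXR beta respond to oxidised sterols and switch on export pumps and MYLIP, the ligase that marks lipoprotein receptors for breakdown. Dividing cells need sterol for new membrane and take it from both synthesis and uptake.

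Total counts ranged from 27301396 to 123907626 per library, and the lowest count of any member in a library was 122. Levels are given as CPM, counts per 1000000 counts of a library after TMM scaling, and gene lengths matter only where levels of different genes are compared. Dll1 itself, the gene behind the sort, was 7.61 and 13.7 CPM in the Dll1- and 87.5 and 138 CPM in the Dll1+ libraries of the GFP mice, against 34.7 and 50.3 and then 203 and 250 CPM in the mCh mice. The 5 epithelial markers summed to between 4647 and 7864 CPM in every library. Markers of other cells were present as well. The macrophage markers apart from Cd14 (11 genes) summed to between 102 and 131 CPM in the 4 GFP libraries, 624 and 649 CPM in the mCh Dll1- libraries and 279 and 289 CPM in the mCh Dll1+ libraries. Cd14 was higher in the Dll1+ library of all 4 mice. With it, all 12 summed to 322 and 278 CPM in GFP Dll1- and 469 and 405 CPM in GFP Dll1+ libraries. In the mCh mice those sums were 771 and 928 CPM in Dll1- and 516 and 712 CPM in Dll1+ libraries. The 8 fibroblast markers summed to between 1026 and 1272 CPM in the GFP libraries, 7703 and 22113 CPM in the mCh Dll1- and 3088 and 3344 CPM in the mCh Dll1+ libraries. No marker of these lists was at 0 in any library. In such bulk libraries fewer cells of a type and less RNA per cell cannot be told apart.

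Promoter windows were at hand for 25 of the 31 members in the RefSeq set for GRCm38.p6, each reaching from 250 bases before to 50 bases after a transcript start. Fdps, Fdft1, Sqle, Stard4, Abcg1 and Npc1 had none. The CCAAT box is the short element that NF-Y binds beside SREBP2 at many sterol genes. On either strand, it lay in the windows of 14 of 15 synthesis enzymes and 3 of 4 SREBP2 control genes. Windows of 1 of 4 LXR and efflux genes and 2 of 2 storage and release genes held it too. It was in 37.4% of all 32851 windows, and in 42.4% of the tested genes that had a window. Acat2 was the synthesis enzyme without it. Mvk carried 5 copies, Hmgcs1 and Nsdhl carried 4 each, and Msmo1 and Hsd17b7 carried 3 each. Outside the enzymes, Insig2 and Mylip also carried 3 each. TCACNCCAC, a core form of the sterol regulatory element that SREBPs bind, was found on either strand only in the Hmgcs1 window among the members, against 1.24% of all windows. These are matches of letters in a short window, and binding was not measured.

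Stretches of 4 of these promoters are shown, 3 from synthesis enzymes with lower counts in Dll1+ cells and that of Mylip, the LXR target with higher counts, written 5′ to 3′ on the strand of the gene, with every CCAAT box (ATTGG where it lies on the other strand) and the TCACNCCAC match of Hmgcs1 in capitals. The 2 motifs do not overlap here. The Hmgcs1 stretch covers chr13:119690201-119690330 on the plus strand, from 150 to 21 bases before the start. That of Mvd covers chr8:122443423-122443542 on the minus strand, the 120 bases before the start. The Hsd17b7 stretch covers chr1:169969245-169969385 on the minus strand, from 180 to 40 bases before the start. The Mylip stretch covers chr13:45389592-45389741 on the plus strand, the 150 bases before the start.
Hmgcs1: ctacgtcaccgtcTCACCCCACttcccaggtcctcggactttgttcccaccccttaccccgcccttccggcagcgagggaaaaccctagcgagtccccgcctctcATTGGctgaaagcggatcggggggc
Mvd: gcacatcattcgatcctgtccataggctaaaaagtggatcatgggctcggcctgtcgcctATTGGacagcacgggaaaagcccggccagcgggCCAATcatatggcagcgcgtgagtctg
Hsd17b7: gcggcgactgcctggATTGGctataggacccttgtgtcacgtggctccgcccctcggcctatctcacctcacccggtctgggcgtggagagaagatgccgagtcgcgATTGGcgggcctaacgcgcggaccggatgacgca
Mylip: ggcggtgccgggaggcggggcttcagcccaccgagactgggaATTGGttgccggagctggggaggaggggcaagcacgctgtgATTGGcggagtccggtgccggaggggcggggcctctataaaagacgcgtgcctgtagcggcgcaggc

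The synthesis enzymes were lower in Dll1+ than in Dll1- cells along most of the pathway. Over the 4 mice all 18 had a fitted log2 fold change below 0, with a median of -0.42 against -0.000684 over the 18322 genes tested. Of the 18, 11 passed the test with a lower level, 7 did not pass, and none was called higher, where a gene was called at an adjusted p under 0.05 in edgeR's quasi-likelihood test with the mouse as a block. Across all tested genes 7.04% were called lower and 6.98% higher. The enzymes' summed level was 896, 827, 1089 and 904 CPM in the Dll1- libraries of GFP mouse 1, GFP mouse 2, mCh mouse 1 and mCh mouse 2, and 636, 627, 789 and 725 CPM in the Dll1+ libraries of the same mice. The Dll1+ sums were all below the Dll1- sums. Taken mouse by mouse, the median log2 difference of the enzymes was -0.54, -0.45, -0.42 and -0.33, and 15 of the 18 enzymes were lower in the Dll1+ library of all 4 mice, as were 19.9% of all tested genes.

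**Figure D1:**
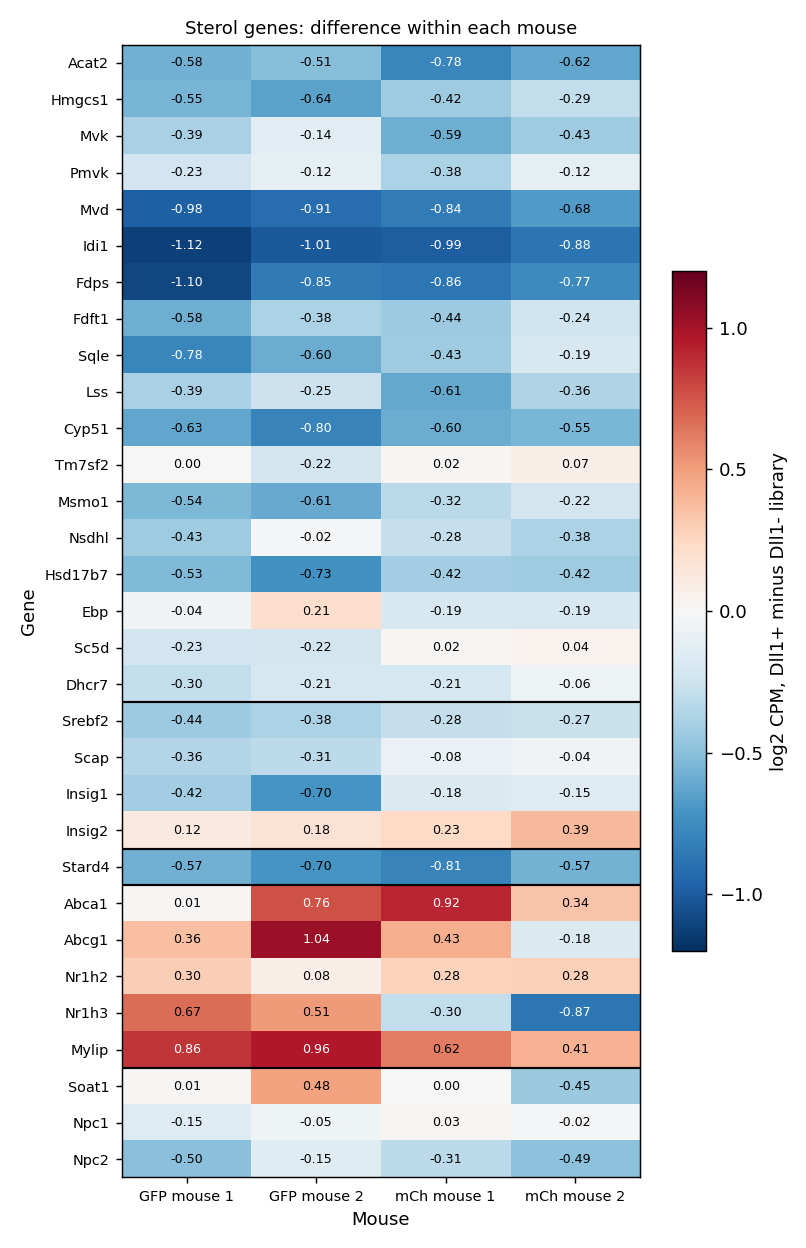
Log2 CPM of the Dll1+ library minus that of the Dll1- library for the 31 genes (rows) in each of the 4 mice (columns), with the value in each cell and black lines between the roles (synthesis enzymes, SREBP2 control, Stard4, LXR and efflux, storage and release). Blue cells are lower in Dll1+ cells; Idi1 ranges from -0.88 to -1.12, and Mylip from 0.41 to 0.96.

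The 8 enzymes up to squalene were lower in the Dll1+ library of every mouse, with a median log2 fold change of -0.55. Of these 8, 6 were called lower, against 7.04% of all tested genes. Idi1, which interconverts the isoprenoid building blocks, had 58.1, 54.5, 68.8 and 51.9 CPM in the Dll1- libraries and 26.7, 27.1, 34.7 and 28.2 CPM in the Dll1+ libraries, in the order of mice above, which is kept below. No Dll1+ library of Idi1 reached the level of a Dll1- library, and the log2 fold change was -0.999 ± 0.06 (SE of the fit, n = 4 mice), or 2.00-fold lower. It was the lowest fold change of the 31 members.

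Fdps, which makes farnesyl diphosphate, was at 89.3, 68.1, 155 and 101 CPM in the Dll1- libraries and 41.8, 37.9, 85.0 and 59.5 CPM in the Dll1+ libraries. Each mouse was lower in Dll1+ cells, but the mCh levels were above the GFP levels in both kinds of cells, so the groups overlapped, and the log2 fold change within mice was -0.89 ± 0.07. Mvd, which decarboxylates mevalonate diphosphate, was at 18.5, 16.4, 39.3 and 29.9 CPM in Dll1- and 9.35, 8.68, 21.9 and 18.7 CPM in Dll1+ cells. Its groups overlapped in the same way, with a log2 fold change of -0.85 ± 0.08.

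Acat2, the cytosolic thiolase at the head of the pathway, had 40.0, 38.0, 66.1 and 48.3 CPM in Dll1- and 26.8, 26.6, 38.4 and 31.4 CPM in Dll1+ cells. The overlap was slight, since only the highest Dll1+ library, of mCh mouse 1, stood above a Dll1- library, and the log2 fold change was -0.63 ± 0.07. Reads of Acat2 can be shared with its near copy Acat3. Hmgcs1, which makes HMG-CoA, had 76.2, 71.2, 67.9 and 65.5 CPM in Dll1- and 51.9, 45.5, 50.6 and 53.4 CPM in Dll1+ cells. Those groups were apart, at -0.48 ± 0.07. Fdft1, which joins farnesyl units into squalene, was called at -0.41 ± 0.07. The kinases Mvk and Pmvk, which phosphorylate mevalonate in turn, did not pass the test, at -0.39 ± 0.10 and -0.21 ± 0.06.

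After squalene, 5 of 10 enzymes were called lower, against 7.04% of all tested genes, and the median log2 fold change was -0.34. Sqle, the epoxidase that adds oxygen to squalene, had 75.2, 60.3, 96.8 and 64.4 CPM in Dll1- and 43.7, 39.8, 72.1 and 56.5 CPM in Dll1+ cells. The libraries of mCh mouse 2 lay closest together, and the log2 fold change was -0.50 ± 0.10. Cyp51, the lanosterol demethylase, had 36.6, 36.8, 50 and 50.5 CPM in Dll1- and 23.7, 21.1, 33.1 and 34.5 CPM in Dll1+ cells. Its groups did not overlap, at -0.64 ± 0.07. Hsd17b7, a reductase of the removal of the sterol methyl groups, was at 14.4, 14.5, 12.8 and 14.0 CPM in Dll1- and 9.94, 8.75, 9.54 and 10.4 CPM in Dll1+ cells. Those groups were apart as well, at -0.53 ± 0.09. Msmo1, the methyl oxidase, and Lss, which closes the lanosterol ring, were called at -0.42 ± 0.09 and -0.41 ± 0.07.

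Of the other enzymes after squalene none passed the test. Dhcr7, the final reductase of one branch, had 110, 96.8, 117 and 106 CPM in Dll1- and 89.4, 83.9, 101 and 102 CPM in Dll1+ cells, a log2 fold change of -0.19 ± 0.06 that did not pass. Nsdhl, of the removal of the methyl groups, was at -0.28 ± 0.09. The sterol isomerase Ebp, the desaturase Sc5d and the reductase Tm7sf2 were at -0.05 ± 0.08, -0.10 ± 0.07 and -0.03 ± 0.07, and these were the enzymes that did not go the same way in all 4 mice. Idi1, Hmgcs1, Cyp51 and Hsd17b7 were the enzymes whose Dll1+ libraries all lay below all Dll1- libraries, a pattern shared by 3.33% of the tested genes. Per kb of exon, Pmvk stood highest among the enzymes with a mean level of 35.5 CPM per kb over the 8 libraries. It was followed by Ebp at 20.8, Fdps at 18.9 and Dhcr7 at 17.3, and Hsd17b7 stood lowest at 2.31 CPM per kb. Exon length here counts every annotated exon base of a gene over all its transcripts, so this order also rests on the annotation.

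All 8 proliferation markers, such as Mki67 and Plk1, were also called lower in Dll1+ cells, with log2 fold changes between -1.45 and -0.90. Their summed level was 418, 426, 597 and 527 CPM in the Dll1- and 161, 162, 265 and 308 CPM in the Dll1+ libraries. The Dll1- and Dll1+ sums were apart, as were those of the synthesis enzymes. Basal markers, led by Krt5, moved the other way, with 170, 134, 328 and 639 CPM in the Dll1- and 381, 214, 1219 and 1455 CPM in the Dll1+ libraries, and 2 of the 6 were called higher. The part of either in the sterol genes was not tested.

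**Figure D2:**
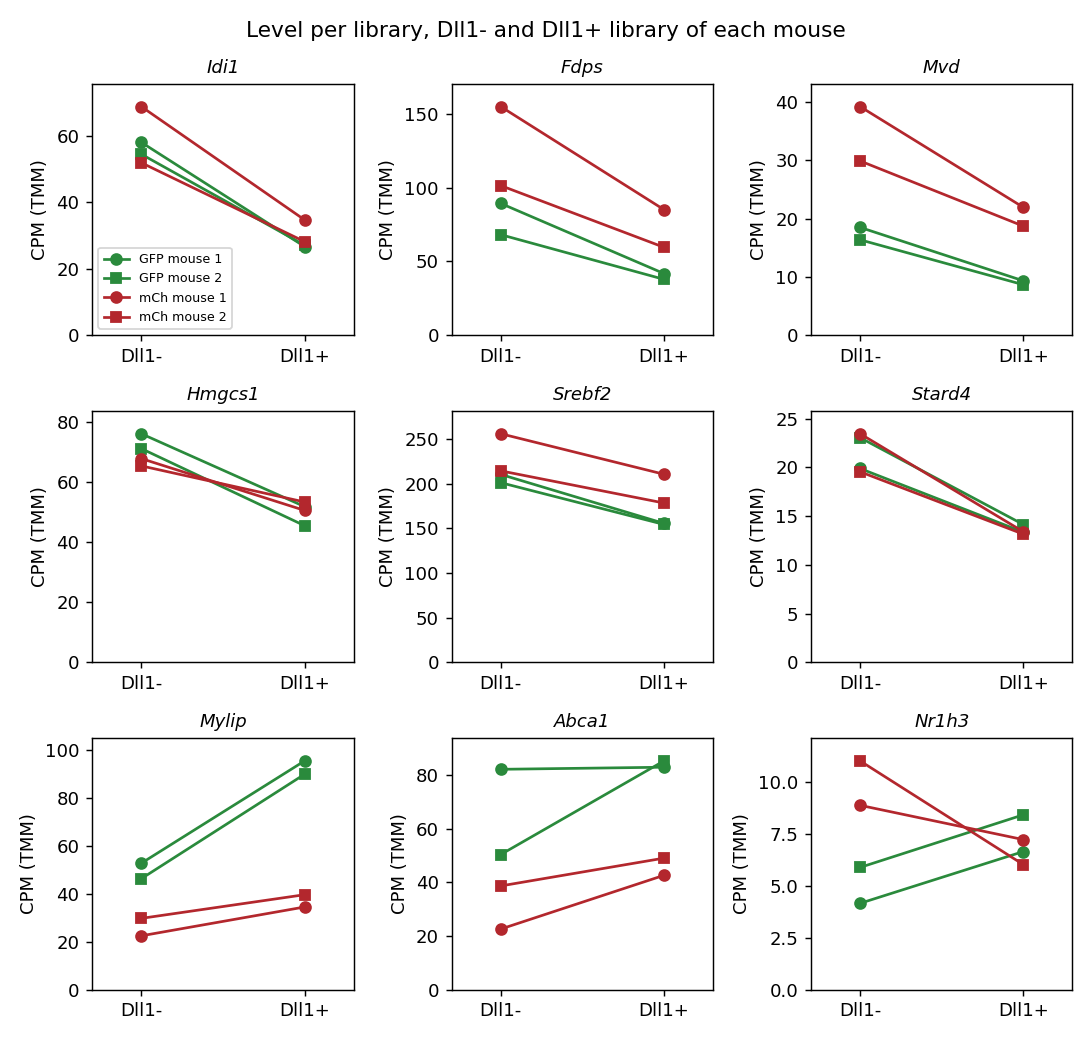
CPM of 9 genes in the Dll1- and Dll1+ library of each mouse, with a line joining the 2 libraries of a mouse, green for GFP and red for mCh mice, circles for mouse 1 and squares for mouse 2 of a reporter, and every axis from 0. Lines of Idi1, Fdps, Mvd, Hmgcs1, Srebf2 and Stard4 go down in all 4 mice, those of Mylip go up, and those of Nr1h3 go up in GFP and down in mCh mice.

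In the control system the gene of the transcription factor was itself lower. Srebf2, which encodes SREBP2, had 210, 201, 256 and 214 CPM in Dll1- and 156, 154, 211 and 178 CPM in Dll1+ cells. Only the Dll1+ library of mCh mouse 1 reached into the Dll1- range, and Srebf2 was called at -0.34 ± 0.06. Scap, the escort of SREBP2, was at -0.20 ± 0.08 and lower in all 4 mice without passing. Insig1, the anchor that SREBP2 itself switches on, had 151, 169, 140 and 110 CPM in Dll1- and 113, 104, 124 and 99.2 CPM in Dll1+ cells, a log2 fold change of -0.36 ± 0.10. It was called in the GFP mice alone. Insig2, the anchor that does not depend on SREBP2 in this way, had 39.3, 37.2, 26.8 and 33.9 CPM in Dll1- and 42.6, 42.1, 31.5 and 44.3 CPM in Dll1+ cells. It was thus higher in the Dll1+ library of each mouse, against the other 3 control genes, at 0.23 ± 0.07 without passing.

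Stard4, a carrier that moves cholesterol between membranes and is a known SREBP2 target, had 19.9, 23.0, 23.5 and 19.6 CPM in Dll1- and 13.4, 14.1, 13.4 and 13.2 CPM in Dll1+ cells. The Dll1+ libraries were nearly alike across both reporters and all lay below the Dll1- libraries. The log2 fold change was -0.67 ± 0.08, and Stard4 was called over the 4 mice and in each reporter, though not with the mCh mice fitted alone.

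Genes of the LXR and efflux arm had a median log2 fold change of 0.41, above 0 where that of the enzymes was below. Of the 5, 1 was called higher and none lower, where 6.98% of all tested genes were called higher and 7.04% lower. In the Dll1+ library of all 4 mice 3 of the 5 were higher, as were 21.4% of all tested genes. Mylip, the LXR target that leads to breakdown of lipoprotein receptors, had 52.6, 46.2, 22.4 and 29.7 CPM in Dll1- and 95.3, 89.8, 34.4 and 39.6 CPM in Dll1+ cells. The GFP levels were above the mCh levels in both kinds of cells, so the 8 libraries overlapped, while every mouse was higher in Dll1+ cells. Mylip was called at 0.71 ± 0.10, or 1.64-fold higher, and in each reporter, though not with the mCh mice fitted alone.

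Abca1, the pump that loads cholesterol onto lipoprotein particles, had 82.1, 50.3, 22.6 and 38.6 CPM in Dll1- and 82.9, 85.3, 42.6 and 49.0 CPM in Dll1+ cells. Its within-mouse log2 difference ran from 0.01 in GFP mouse 1 to 0.92 in mCh mouse 1, so that 0.51 ± 0.16 did not pass. Abcg1, the partner pump, had 17.9, 11.3, 19.3 and 24.1 CPM in Dll1- and 23.0, 23.1, 26.1 and 21.3 CPM in Dll1+ cells. It was higher in 3 of 4 mice, at 0.41 ± 0.19. Nr1h2, which encodes LXR beta, had 113, 126, 113 and 120 CPM in Dll1- and 138, 133, 136 and 146 CPM in Dll1+ cells. All Dll1+ libraries lay above all Dll1- libraries, but the step was small, 0.23 ± 0.06, and did not pass.

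Nr1h3, which encodes LXR alpha, had the widest fitted difference between the reporters among the 31 members. It had 4.16, 5.89, 8.89 and 11.0 CPM in Dll1- and 6.66, 8.43, 7.23 and 6.03 CPM in Dll1+ cells. Dll1+ cells were higher in both GFP mice and lower in both mCh mice, with log2 fold changes of 0.59 ± 0.20 and -0.58 ± 0.19. The fitted signs were also opposite for Soat1 (0.25 ± 0.16 in GFP and -0.22 ± 0.16 in mCh mice), Ebp, Tm7sf2, Sc5d and Npc1. For Nr1h3 the difference between reporters was -1.17 ± 0.27 and was not called. With no filter on low counts it was called, but there calls over all genes rose from 13 to 1143. Macrophages express Nr1h3, and 11 of the 12 macrophage markers were called lower in Dll1+ cells of the mCh mice and 1 of 12 was called there as higher, while in GFP mice 1 of 12 was called, Cd14 as higher. The summed macrophage levels given above moved with Nr1h3 in the mCh mice. Fibroblast, pericyte and endothelial markers were lower in Dll1+ cells there too. Their median log2 fold changes were -2.14, -2.04 and -1.36, against -1.15 for the macrophage markers. For the GFP mice these medians were -0.12, -0.16 and 0.11, against 0.12. The part of any of these cells in the values of Nr1h3 was not tested. In the GFP mice the macrophage sums without Cd14 were 128 and 102 CPM in Dll1- and 131 and 118 CPM in Dll1+ cells. With Cd14 they were 322 and 278 CPM in Dll1- and 469 and 405 CPM in Dll1+ cells. Mylip was at 0.91 ± 0.09 in the GFP mice, and the part of macrophages in its values was not tested either.

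Of the 3 storage and release genes 1 was called lower and none higher, where 7.04% of all tested genes were called lower and 6.98% higher. Soat1, which esterifies cholesterol for storage, had 19.8, 20.2, 27.5 and 31.4 CPM in Dll1- and 19.9, 28.2, 27.5 and 23.0 CPM in Dll1+ cells, a log2 fold change of 0.01 ± 0.15 with no common direction. The lysosomal exporter gene Npc1 was at -0.05 ± 0.06. Npc2, which hands cholesterol to NPC1, had 134, 128, 235 and 221 CPM in Dll1- and 94.9, 115, 189 and 157 CPM in Dll1+ cells. It was lower in each mouse and was called at -0.36 ± 0.08, and both mCh libraries of a kind were above both GFP libraries.

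Over all roles 15 of the 31 members were called in the 4 mice, 14 lower and 1 higher, against 7.04% and 6.98% of all tested genes. The count moved with the mice used. It was 6 without GFP mouse 1, 7 without GFP mouse 2, 5 without mCh mouse 1 and 15 without mCh mouse 2, and all 4 of these counts came with fewer calls over all genes (433, 779, 405 and 2400 against 2568). The median log2 fold change of the synthesis enzymes stayed between -0.48 and -0.39 over the same 4 fits. Without the mouse as a block, and with no term for the reporter, 0 members were called, with 11 at an unadjusted p under 0.05. DESeq2 called 23 members with the block, and it also called more of all genes, 4362 against 2568.

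Within the GFP mice 14 members were called lower and 1 higher, where 4.84% of all tested genes were called lower and 4.29% higher. In the mCh mice 8 were called lower and 1 higher, against 6.25% and 5.51%. These fits share libraries with the 4-mouse fit, so their calls are not separate evidence. Acat2, Hmgcs1, Mvd, Idi1, Fdps, Cyp51 and Stard4 were called lower in each reporter. The mCh calls rest on a fit that takes its spread from all 8 libraries, and with the mCh mice fitted alone 0 members and 0 of all genes were called by edgeR, with 23 members and 5512 genes at an unadjusted p under 0.05. Fdft1, Sqle, Msmo1, Hsd17b7, Srebf2, Scap and Insig1 were called in the GFP mice and Lss in the mCh mice. The median of the 18 enzymes was -0.51 in GFP and -0.35 in mCh mice, against medians of -0.00932 and 0.0209 over all tested genes.

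The difference between those effects was tested directly. No member was called in edgeR's test of the difference, with 5 of the 31 at an unadjusted p under 0.05 and none called by DESeq2, and 0.071% of all tested genes were called. Sqle differed by 0.38 ± 0.13, Insig1 by 0.40 ± 0.13 and Mylip by -0.39 ± 0.13 (mCh minus GFP, log2), each a smaller step in the mCh mice. With GFP mouse 1 or GFP mouse 2 left out no member was called by edgeR in the remaining GFP mouse, with 17 and 19 at an unadjusted p under 0.05, and with 1 mCh mouse left out 4 to 7 members were called for the other. Each of these fits has 1 pair of libraries for that reporter, which is assumed to vary like the mice of the other reporter, so the counts say little about a single mouse.

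**Figure D3:**
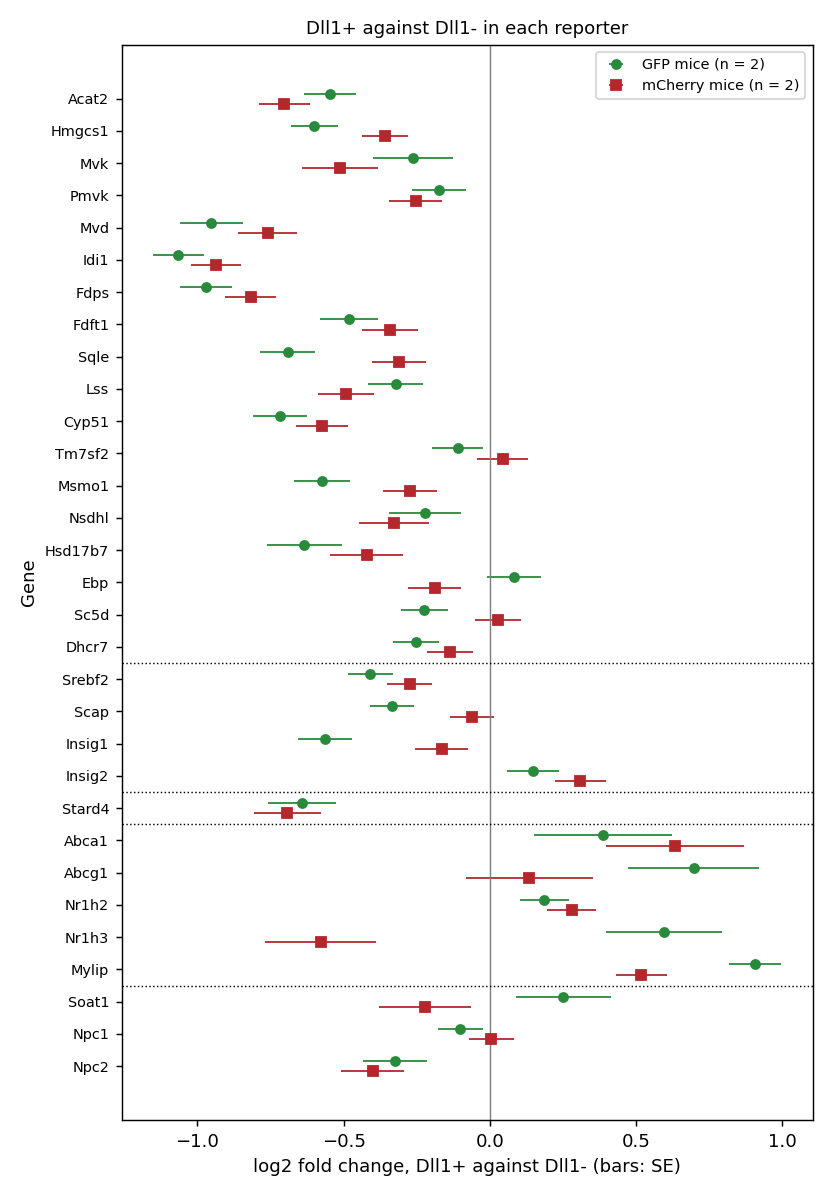
Fitted log2 fold change between Dll1+ and Dll1- cells for the 31 genes in GFP mice (green circles) and mCh mice (red squares), 2 mice each, with bars for the standard error and dotted lines between roles. Both reporters are below 0 for most synthesis enzymes, and Nr1h3 lies at 0.59 in GFP and -0.58 in mCh mice.

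Levels also differed between the reporter lines within the same kind of cells, compared between 2 mCh and 2 GFP libraries. In Dll1- cells 8 members were called higher in mCh and 2 lower, where 18.7% of all tested genes were called higher and 17.9% lower. In Dll1+ cells 6 were called higher and 2 lower, against 15.2% and 15.4%. Counting both directions, members were called no more often than all tested genes. The counts are thus no result about the members, and single genes are given below. Mvk, Mvd, Fdft1, Cyp51 and Npc2 were called higher in both kinds of cells. Mvd stood furthest up, at 0.99 ± 0.17 in Dll1- and 1.18 ± 0.17 in Dll1+ cells, and all 4 of its mCh libraries were above all 4 GFP libraries. Mvk, at 9.52 and 9.57 CPM in the GFP and 18.5 and 17.9 CPM in the mCh Dll1- libraries, was likewise apart, at 0.93 ± 0.15.

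Mylip stood furthest down of the called members in Dll1+ cells, at -1.32 ± 0.16, and was at -0.93 ± 0.16 in Dll1- cells. Abca1 was called lower in mCh Dll1- cells, at -1.12 ± 0.31, and was at -0.88 ± 0.30 in Dll1+ cells without passing. Nr1h3 was called higher in mCh Dll1- cells alone, at 0.98 ± 0.25. Pathway neighbours were not alike here, since Hmgcs1 and Pmvk differed by -0.14 ± 0.10 and -0.09 ± 0.10 in Dll1- cells, and Lss was called lower in mCh Dll1+ cells, at -0.58 ± 0.15. Without GFP mouse 1, or without GFP mouse 2, no member and no gene at all was called in either of these comparisons by edgeR, with 6 to 8 members at an unadjusted p under 0.05. The reporter goes together with the mouse line and with the macrophage and fibroblast sums given above (11 of 12 and 8 of 8 markers called higher in mCh Dll1- cells, 8 of 12 and 5 of 8 in mCh Dll1+ cells), and these cannot be told apart. Proliferation markers went with it too, with 6 of 8 called higher in mCh Dll1- and 7 of 8 in mCh Dll1+ cells, as did endothelial markers (6 of 6 and 1 of 6), pericyte markers (3 of 5 in both, with 1 called lower in Dll1+ cells) and basal markers (2 of 6 and 4 of 6, with 1 called lower in Dll1- cells).

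**Figure D4:**
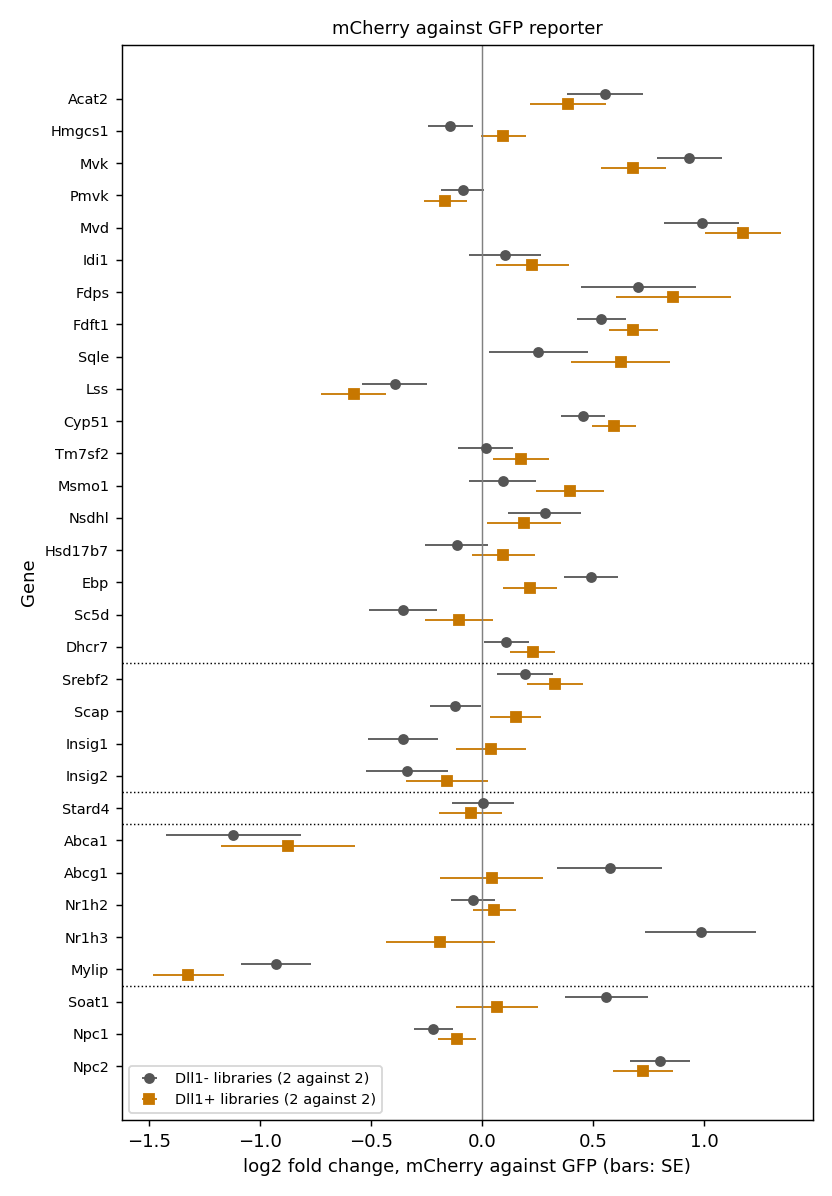
Fitted log2 fold change of mCh against GFP libraries for the 31 genes in Dll1- cells (grey circles) and Dll1+ cells (orange squares), 2 libraries against 2, with bars for the standard error and dotted lines between roles. Mvd and Mvk lie to the right in both kinds of cells, and Mylip and Abca1 to the left.

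Of 48 further sterol genes outside the members, 7 were called over the 4 mice, 3 higher and 4 lower, with a median log2 fold change of -0.02. These shares are near the 6.98% and 7.04% called higher and lower over all tested genes, so the counts are no result about the lists. Called genes are given one by one, up to 4 of each list by lowest p, so not every called gene is named. Sterol transfer and uptake held most of them, with 3 of 16 called higher and 2 lower. Lrp8, a receptor of the lipoprotein receptor family, had 8.12, 6.83, 9.13 and 7.86 CPM in Dll1- and 2.69, 2.37, 4.11 and 3.44 CPM in Dll1+ cells. Its Dll1+ libraries were all below its Dll1- libraries, at -1.36 ± 0.14 (adjusted p = 0.00671, edgeR). Vldlr, another receptor of that family and like Lrp8 a protein that MYLIP marks for breakdown, went the other way, with 41.8, 46.2, 27.1 and 43.3 CPM in Dll1- and 72.4, 72.0, 45.2 and 55.3 CPM in Dll1+ cells. It was higher in all 4 mice, at 0.63 ± 0.08 (adjusted p = 0.0113, edgeR).

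Scarb1, the receptor for high density lipoprotein, was lower at -0.53 ± 0.07 (adjusted p = 0.0111, edgeR), and Osbpl5, an oxysterol binding protein homologue, was higher at 0.34 ± 0.08 (adjusted p = 0.0389, edgeR). In the list of SREBP processing and degradation 1 of 8 genes was called, Erlin1, a scaffold of sterol-driven breakdown in the endoplasmic reticulum, at -0.34 ± 0.06 (adjusted p = 0.0184, edgeR). The isoprenoid branch, which leaves the pathway after farnesyl diphosphate, had a median of -0.05, and 1 of 12 genes was called, Pdss1 of ubiquinone synthesis, at -0.68 ± 0.15 (adjusted p = 0.0403, edgeR). None of 6 LXR partners and targets and none of 6 oxysterol enzymes was called over the 4 mice by edgeR, with 2 and 1 at an unadjusted p under 0.05, and none called by DESeq2.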

How the data were processed

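The authors mapped the reads with salmon against GENCODE M20 transcripts (GRCm38.p6), combined transcripts into genes by tximport, and the deposited table holds estimated counts per gene, in whole numbers. The table has 53697 genes in 8 libraries (TruSeq stranded kit, total RNA), and 0 columns were left unused. Symbols and coordinates came from GENCODE M21 on GRCm38, since M20 was not used here. Counts were scaled by TMM, filtered with filterByExpr and tested with edgeR 4.0.16 (robust quasi-likelihood F test) in R 4.3.3, with Benjamini-Hochberg adjustment over 18322 genes and a threshold of 0.05. All 31 members passed the filter. The model of Dll1 status and mouse follows the study's methods, and the mouse named for each library pairs the libraries. Deviations of paired libraries from their group means correlated at -0.0472 in GFP and 0.554 in mCh mice. A second fit had a separate Dll1+ effect per reporter, and a fit of the 4 groups without the mouse compared reporters, since mice are nested in reporters. A prior count of 2 was added for log2 levels, and n is the number of mice. Values after ± are the size of the log2 fold change divided by the square root of the F statistic. They rest on a spread moderated over all genes, and are not the spread between mice.

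The members and lists were chosen with earlier results of these data known. Named genes are all members, Dll1, and of the 5 further lists up to 4 genes each with the lowest p among those called. Some sterol genes are not reported here. Alternatives were RLE size factors, DESeq2 1.42.0, no filter, a minimum of 10 counts in every library, a fit of 1 reporter at a time, a fit without the mouse block, a fit of the 4 libraries compared, and leaving out each mouse. The fitting script was tested on simulated counts. Mvd, Fdft1, Cyp51 and Npc1 overlap Gm20388, Ctsb, Akap9 and Rmc1 on the other strand, and Tm7sf2 overlaps Vps51 on the same strand; whether the counting used strand is not given in the sources used here. Reads are not independent molecules. Promoter windows came from RefSeq (GRCm38.p6), searched on both strands.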

Additional observations from a re-analysis of the deposited data

Results flagged for a closer look

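Nr1h2 had log2 differences between its Dll1+ and Dll1- libraries of 0.30, 0.28 and 0.28 in GFP mouse 1, mCh mouse 1 and mCh mouse 2, and of 0.0789 in GFP mouse 2, which stood apart from the other mice by Dixon's test for 4 values. Of the 31 members examined it was the 1 that stood apart, and chance alone gives about 1 in 20.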

How the results depend on the processing

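Of the 31 members, 15 were called over the 4 mice, and with DESeq2 23 were called, with 4362 calls over all genes against 2568. Without the mouse block 0 were called, as was 0 of all genes by edgeR. At an unadjusted p under 0.05 in that fit there were 11 members and 1624 of all genes. That fit also held no term for the reporter. Another unblocked fit, with the reporter and a separate Dll1+ effect for each, called 4 in GFP mice and 0 in mCh mice, against 15 and 9 with the block. With 1 mouse left out the count was 5 to 15 over the 4 mice, 0 to 15 for the GFP effect, 4 to 7 for the mCh effect, 0 to 1 for the difference between reporters, and 0 to 15 and 0 to 13 for the levels between reporters in Dll1- and Dll1+ cells. With no filter on low counts 15 were called in mCh mice, with 3637 calls over all genes against 2154. The same setting called 1 member in the difference between reporters, Nr1h3, with 1143 calls over all genes against 13. Fitted alone, the mCh mice gave 0 calls among the members and over all genes, with 23 members at an unadjusted p under 0.05. DESeq2 called 11 of the further sterol genes, against 7. The medians of the synthesis enzymes and of the LXR and efflux genes moved by less than their SD over mice under every alternative run, and no member that was called changed direction. The cause of the changed counts was not tested. Fits with 1 mouse left out also had fewer mice, and the part of that was not tested either. With 2 mice per reporter, the difference of Mylip between reporters, -0.39 ± 0.13, was not called.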
